A study of Mus musculus with 6 samples.

Results

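The genes described here handle purines and nucleosides in the enterocytes of the small intestinal villus: the nucleotide-cleaving enzymes Nt5e, Enpp3 and Entpd5, the nucleoside carriers Slc28a1, Slc28a2 and Slc29a1, and the enzymes Ada, Adk, Pnp and Xdh. They were taken by symbol from the Ensembl identifiers of a gene count table, and 10 of 10 were found among its 55450 identifiers and passed the filter on low counts. The data were polyA RNA-seq counts from epithelium scraped off the small intestine, with 6 adult mice giving 1 library each. The 3 knockout mice (animals 423, 476 and 477) were homozygous for floxed alleles of Ncor1 and of a second targeted corepressor gene and carried Vil1-Cre-ERT2, a transgene in which the villin 1 promoter drives a tamoxifen-activated Cre recombinase in intestinal epithelial cells. The 3 control mice (animals 482, 483 and 486) carried the same floxed alleles without the transgene. Mice of both genotypes were given tamoxifen by injection at 8 to 9 weeks of age, at 15 mg per 100 g body weight for 5 days. They were then followed daily and moved to single housing in metabolic cages at day 21; the labels do not say on which day tissue was taken. The transgene is therefore present in the knockouts alone, and the deletion and the transgene cannot be told apart. The intestinal segment behind each library is not stated in the labels.

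Extracellular nucleotides released by epithelial cells or present in the gut lumen are cut down to nucleosides at the cell surface, taken up by carriers, and then either broken down to urate or returned to the nucleotide pool. Adenosine stands at the branch point: CD73 (Nt5e) makes it from AMP outside the cell, adenosine deaminase (Ada) turns it into inosine, and adenosine kinase (Adk) turns it back into AMP. In the mouse villus, Ada, Nt5e and Slc28a2 are known for transcripts that peak in enterocytes at the tip. The corepressor NCoR1 brings histone deacetylases to nuclear receptors that have no ligand bound.

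Promoter sequences are shown for the 3 genes that changed and for Slc28a2, the closest relative of the gene that fell. Each line gives the 250 bases upstream of the RefSeq start on GRCm38.p6 (mm10), 5′ to 3′ on the gene's strand, with letters that match any of 5 searched motifs in capitals. The windows are chr7:81114549-81114798 (plus strand) for Slc28a1, chr2:122426185-122426434 (plus) for Slc28a2, chr2:163750240-163750489 (minus) for Ada and chr14:50944053-50944302 (plus) for Pnp.
Slc28a1: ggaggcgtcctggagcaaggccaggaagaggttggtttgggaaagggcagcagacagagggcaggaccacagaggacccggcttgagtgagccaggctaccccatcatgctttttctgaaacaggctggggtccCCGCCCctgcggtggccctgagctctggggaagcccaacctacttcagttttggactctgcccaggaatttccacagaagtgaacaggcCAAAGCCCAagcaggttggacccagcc
Slc28a2: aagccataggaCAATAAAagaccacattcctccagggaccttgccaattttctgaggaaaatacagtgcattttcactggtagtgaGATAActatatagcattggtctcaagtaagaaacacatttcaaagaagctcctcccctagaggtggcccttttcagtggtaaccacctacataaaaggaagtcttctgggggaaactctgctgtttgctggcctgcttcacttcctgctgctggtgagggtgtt
Ada: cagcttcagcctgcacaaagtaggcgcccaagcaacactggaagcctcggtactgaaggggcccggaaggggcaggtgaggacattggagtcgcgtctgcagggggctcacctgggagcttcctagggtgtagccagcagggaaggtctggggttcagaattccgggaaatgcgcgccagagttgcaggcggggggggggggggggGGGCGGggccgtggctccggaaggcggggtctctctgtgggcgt
Pnp: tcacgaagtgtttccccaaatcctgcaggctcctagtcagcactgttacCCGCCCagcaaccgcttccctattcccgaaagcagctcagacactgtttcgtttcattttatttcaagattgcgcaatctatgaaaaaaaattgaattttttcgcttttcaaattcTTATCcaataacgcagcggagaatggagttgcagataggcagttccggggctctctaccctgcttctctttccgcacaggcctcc

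The motifs were searched as exact letters on both strands; the letters CAAAGNCCA were chosen after the promoters had been seen. The nuclear receptor hexamer AGGTCA was found in none of the 4 windows, and 4607 of 32851 RefSeq promoter windows of the same length hold it. CAAAGNCCA, a core of the type bound by the enterocyte factor HNF4, was found in Slc28a1 from 27 to 19 bases before the start, and 1.7% of all windows hold it. GATAA, the letters read by GATA factors, occurred in Slc28a2 and Pnp and in 22.6% of all windows. TTTATNG, of the type read by CDX factors, occurred in Slc28a2 and in 9.81% of all windows. The GC box GGGCGG occurred in Slc28a1, Ada and Pnp and in 32.7% of all windows. Among the 9 of 10 genes with a RefSeq promoter entry, 1 held AGGTCA (Slc29a1, which has 8 entries), 1 held CAAAGNCCA, 3 held GATAA, 1 held TTTATNG and 6 held GGGCGG.

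Total counts were between 23476031 and 46835165 per library. All values below are CPM, that is counts scaled to library size with edgeR's TMM factors, unless a scale is named, and 3 counts, taken as the floor of a library, correspond to between 0.0586 and 0.173 CPM. The targeted gene Ncor1 was at 22.5 to 36.4 CPM in the knockouts and 99.3 to 140 CPM in the controls. The defining markers of enterocytes were present in every library: of 10 tested, 1 rose (Fabp2) and 1 fell. That is 10% in each direction, beside 17.3% of all tested genes rising and 18.3% falling. The one that fell was Vil1, whose promoter drives the transgene: its libraries ranged between 891 and 1547 CPM with the transgene, against 2344 to 2925 CPM in control mice. The labels do not say whether mice of a genotype were littermates, and p-values measure the spread between these 6 mice.

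Knockout was compared with control by edgeR's quasi-likelihood test over 15028 genes with Benjamini-Hochberg adjustment. Ada and Pnp rose, Slc28a1 fell, and the other 7 genes did not pass the adjusted threshold of 0.05. These 3 of 10 stand beside 35.6% of all tested genes called in either direction, 17.3% rising and 18.3% falling, so the share called is near that of the whole table. In 5 of the 10 genes the genotypes did not overlap, beside 50.3% of all genes: 3 had all knockouts above all controls (23.9% of all genes) and 2 had them below (26.4%). The median log2 fold change of the 10 genes was -0.33, and that of all tested genes -0.06. These 3 calls were also made without each of the 6 libraries in turn.

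**Figure D1:**
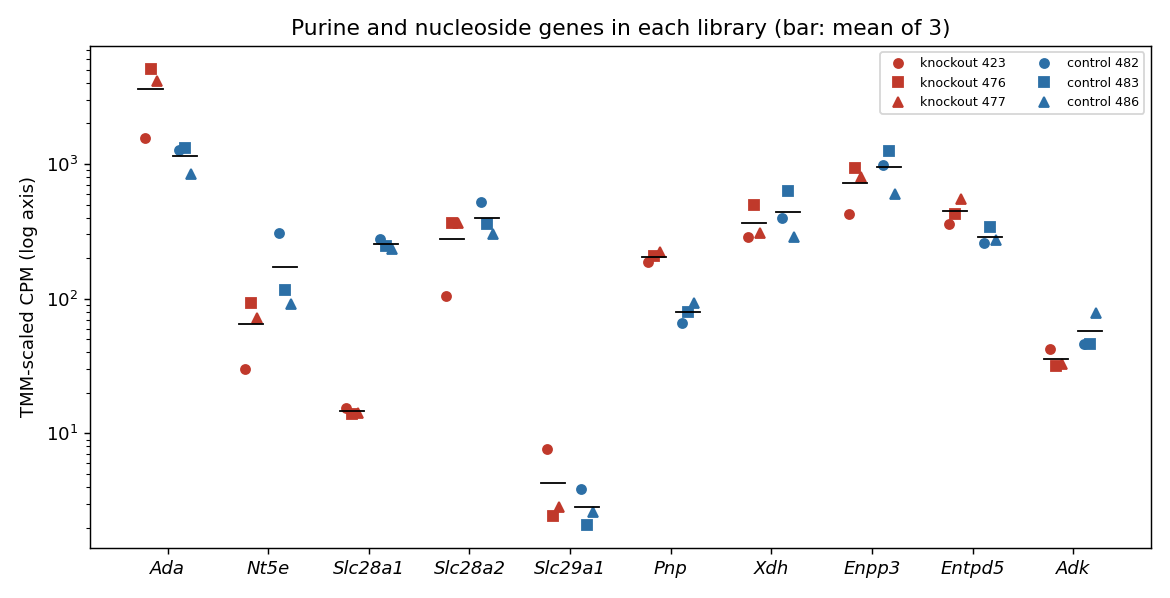
TMM-scaled CPM (log axis) of the 10 purine and nucleoside genes in each library, knockout (red) left of control (blue), with a bar at the mean of 3 libraries. Slc28a1 sits at 13.9 to 15.5 CPM in the knockouts and at 234 CPM or more in the controls, whereas Ada, Nt5e, Slc28a2 and Enpp3 have their lowest knockout value in animal 423.

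The nucleotidase genes Nt5e, Enpp3 and Entpd5 did not pass the test. Nt5e (ENSMUSG00000032420, mm10 chromosome 9, 88327197 to 88372092), which encodes CD73, had 29.8, 93.2 and 71.4 CPM in knockouts 423, 476 and 477, against 309, 116 and 92.1 CPM in controls 482, 483 and 486. The groups overlapped by a narrow margin, since knockout 476 lay just above control 486, and control 482 stood far above the other libraries. The log2 difference of knockout over control was -1.41 (SE 0.51, adjusted p = 0.054), and -0.69 without control 482 (adjusted p = 0.24). DESeq2 called Nt5e at an adjusted p of 0.011.

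Enpp3 (ENSMUSG00000019989, chromosome 10, 24772406 to 24842823), a brush border ecto-enzyme that hydrolyses extracellular ATP and dinucleotides, had 428, 941 and 806 CPM in the knockouts and 988, 1251 and 602 CPM in the controls. The spread within each genotype was wider than the gap between them (log2 fold change -0.39, SE 0.36, adjusted p = 0.42), and the value was -0.09 without knockout 423. Entpd5 (ENSMUSG00000021236, chromosome 12, 84373857 to 84409029), a nucleoside diphosphatase of the endoplasmic reticulum, had 361, 429 and 554 CPM in the knockouts and 258, 340.1 and 271 CPM in the controls. Every knockout library was above every control library, yet the log2 fold change of 0.63 (SE 0.24) had an adjusted p of 0.068. After each library's trend with exon length and GC content was removed, Entpd5 passed with a log2 fold change of 0.85 (adjusted p = 0.025).

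Of the sodium-coupled carriers, Slc28a1 fell and Slc28a2 did not pass. Slc28a1 (ENSMUSG00000025726, chromosome 7, 81114799 to 81170416) encodes CNT1, a sodium-coupled apical carrier that prefers pyrimidine nucleosides. It had 15.5, 13.9 and 14.3 CPM in knockouts 423, 476 and 477, against 278, 247 and 234 CPM in controls 482, 483 and 486. The 3 knockouts lay close together, as did the 3 controls, with a wide gap between the genotypes. It was 17.4-fold lower, a log2 difference of -4.12 (SE 0.22, adjusted p = 9.1e-06), and 1.11% of all tested genes had a lower value. Each library left out in turn gave between -4.17 and -4.05.

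Slc28a2 (ENSMUSG00000027219, chromosome 2, 122426477 to 122461137) encodes CNT2, the paralog that prefers purine nucleosides. It had 105, 363 and 366 CPM in the knockouts and 523, 359 and 302 CPM in the controls. Only knockout 423 lay below all controls, and the test was not passed (log2 fold change -0.50, SE 0.43, adjusted p = 0.38; -0.08 without knockout 423). A neighbouring paralog, Slc28a2b (Gm14085 in the annotation), shares 35.4% of the 50-base windows of Slc28a2 transcripts, so the split of reads between them is uncertain. Slc28a2b had 18 counts over the 3 knockouts and 17 over the 3 controls. The transcripts of Slc28a1 share no such window with those of Slc28a2. Per kilobase of exon, the level of Slc28a2 was 4.77, 18.3 and 18.0 times that of Slc28a1 in the knockouts and 1.32, 1.02 and 0.905 times in the controls. This ratio was higher in 3 of 3 knockouts by 3.44 on the log2 scale.

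Slc29a1 (ENSMUSG00000023942, chromosome 17, 45585200 to 45599606), the equilibrative carrier ENT1, was scarce. It had 7.71, 2.43 and 2.82 CPM in the knockouts and 3.88, 2.09 and 2.6 CPM in the controls. Knockout 423 alone stood apart, and the log2 fold change of 0.60 (SE 0.47, adjusted p = 0.34) became -0.10 without it.

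Of the adenosine enzymes, the deaminase rose. Ada (ENSMUSG00000017697, chromosome 2, 163726584 to 163750239) had 1572, 5101 and 4157 CPM in knockouts 423, 476 and 477, against 1263, 1318 and 845 CPM in controls 482, 483 and 486. All knockouts were above all controls, knockout 423 only slightly. It was 3.16-fold higher, a log2 difference of 1.66 (SE 0.42, adjusted p = 0.014). It was 1.35 without knockout 476 (adjusted p = 0.0496) and 2.05 without knockout 423 (adjusted p = 0.0031).

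Adk (ENSMUSG00000039197, chromosome 14, 21052574 to 21448569), the kinase that competes for adenosine, had 42.3, 31.9 and 33.0 CPM in the knockouts and 46.4, 46.5 and 78.7 CPM in the controls. Every knockout library lay below every control library, with a log2 fold change of -0.68 (SE 0.25) that did not pass (adjusted p = 0.060). Library-size scaling alone moved the median of all genes by -0.44 on the log2 scale, and Adk and Nt5e then passed as lower in the knockouts.

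Further down the breakdown route, Pnp rose and Xdh did not pass. Pnp (ENSMUSG00000115338, chromosome 14, 50931082 to 50965237), the phosphorylase that splits inosine and guanosine, had 188, 206 and 223 CPM in the knockouts, against 65.8, 79.0 and 92.6 CPM in the controls. The groups were well separated, and Pnp was 2.6-fold higher, a log2 difference of 1.38 (SE 0.21, adjusted p = 0.0016). Its tandem copy Pnp2 shares 28.5% of the 50-base windows of its transcripts with Pnp, so the split of reads between them is uncertain. Pnp2 rose as well (log2 fold change 1.51, SE 0.25, adjusted p = 0.0024). Together both genes had 384, 442.5 and 509 CPM in the knockouts and 129, 165 and 196 CPM in the controls, and Pnp held 43.9% to 48.9% of that sum in the knockouts and 47.2% to 51.0% in the controls.

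Xdh (ENSMUSG00000024066, chromosome 17, 73883895 to 73950196), the oxidoreductase that makes xanthine and urate, had 287, 495 and 309.6 CPM in the knockouts and 399, 634 and 288 CPM in the controls. The ranges overlapped almost fully (log2 fold change -0.27, SE 0.33, adjusted p = 0.54). Its sign turned without control 483 (0.08) and after removal of the length and GC trend (0.17).

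**Figure D2:**
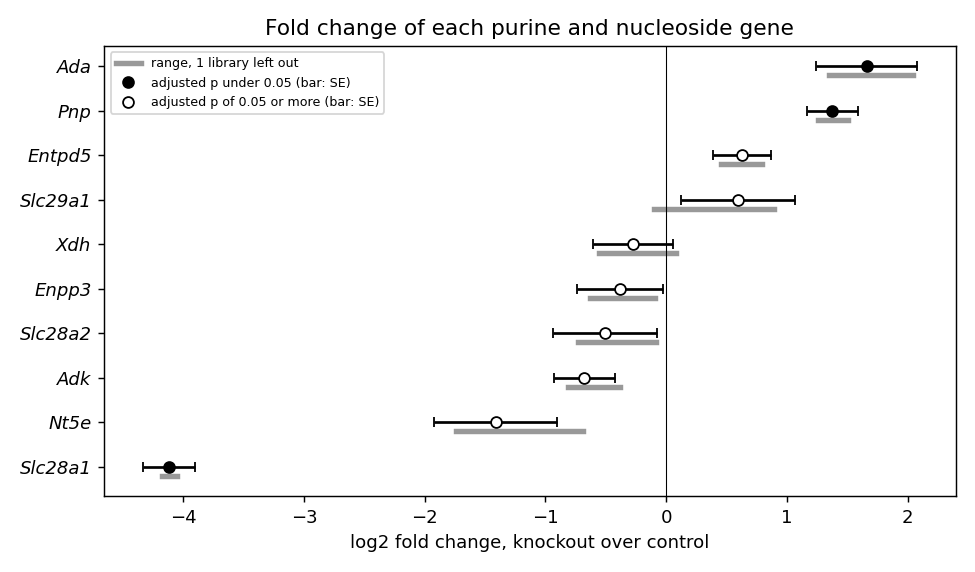
Log2 fold change of knockout over control for each gene (circle) with its SE (black bar); filled circles have an adjusted p under 0.05, and the grey bar is the range when each of 6 libraries is left out. Slc28a1, Ada and Pnp are filled, and the grey bars of Slc29a1 and Xdh cross 0.

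Levels can be set beside each other per kilobase of exon. On that scale Ada led in both genotypes, at 1803 ± 913 CPM per kilobase in the knockouts and 570.4 ± 129 in the controls (SD, n = 3 each), and in both its libraries lay above every library of the next gene, Enpp3. In the knockouts Enpp3, Entpd5, Slc28a2, Pnp and Xdh followed, from 121 down to 39.7 CPM per kilobase, each overlapping the next in its libraries. Nt5e, Slc28a1 and Adk came next at 7.53, 4.93 and 4.19, also overlapping, and Slc29a1 was lowest at 1.08. In the controls Slc28a2 (93.7) and Slc28a1 (85.7) overlapped at ranks 3 and 4, followed by Xdh and Entpd5 at 48.0 each. Nt5e and Pnp (20.0 and 19.9) overlapped as well, and Adk (6.71) and Slc29a1 (0.713) were lowest. Slc28a1 thus held rank 8 in the knockouts and rank 4 in the controls, and Pnp rank 5 in the knockouts and rank 8 in the controls. Per kilobase of the longest transcript the order changed in part: in the knockouts Adk (8.42) passed Slc28a1 (5.02), which was then at rank 9, and in the controls Entpd5 (58.3) passed Xdh (56.6).

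Within the knockouts, animal 423 was the lowest for 7 of the 10 genes, by a wide margin for Ada, Nt5e, Enpp3 and Slc28a2 and by less for Xdh, Entpd5 and Pnp. The share of all tested genes that were lowest in animal 423 was not counted, so this cannot be read as particular to these genes. As deviations from the mean log2 CPM of their genotype, Ada stood at -1.03, 0.66 and 0.37 in knockouts 423, 476 and 477. Nt5e stood at -0.97, 0.68 and 0.29, and Enpp3 at -0.68, 0.45 and 0.23. Slc28a2 stood at -1.20, 0.59 and 0.60. Slc28a1 (0.09, -0.06 and -0.03) and Pnp (-0.13, 0.01 and 0.12) varied less. Per kilobase, the level of Ada was 227, 235 and 250.2 times that of Nt5e in the knockouts, and 17.6, 48.8 and 39.4 times in the controls. Per kilobase of the longest transcript, which is much shorter than the exon union for Nt5e, these ratios were 125, 129.5 and 138 in the knockouts and 9.67, 26.9 and 21.7 in the controls. The knockout ratios were thus close together although both genes varied about 3-fold between those mice.

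**Figure D3:**
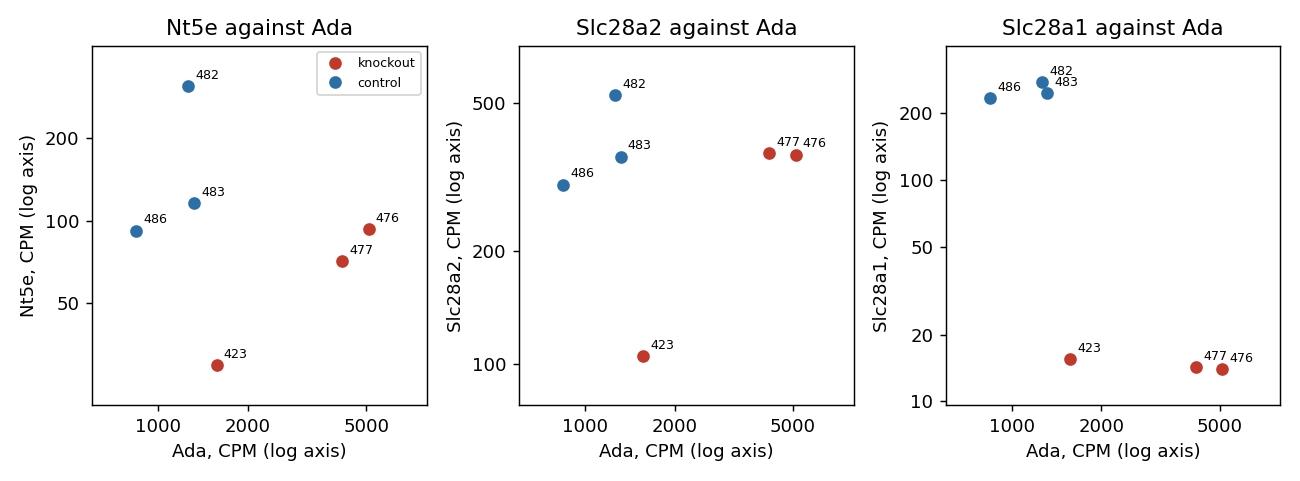
CPM of Nt5e (left), Slc28a2 (middle) and Slc28a1 (right) against CPM of Ada, both on log axes, with 1 point per library, knockouts in red and controls in blue, labelled by animal. Nt5e and Slc28a2 are low where Ada is low among the knockouts (animal 423), while Slc28a1 stays between 13.9 and 15.5 CPM in the knockouts.

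Ratios between members were compared for 5 pairs chosen after the counts had been seen. Ada to Nt5e was higher in the knockouts by 2.88 on the log2 scale, Ada to Adk by 2.17, Ada to Enpp3 by 1.92, and Pnp to Xdh by 1.63. In each of the 5, Slc28a2 to Slc28a1 included, the 3 knockouts lay above the 3 controls. An exact permutation test of 3 against 3 libraries (two-sided) gave p = 0.10 for each, also after adjustment over the 5, and this is the smallest p it can give. Each pair holds Ada, Pnp or Slc28a1, which were already called, and the adjustment does not cover pairs that were not chosen. The test therefore adds no support beyond those calls.

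Other landmark genes of the villus tip were set beside Ada. Of 10 further villus tip landmark genes tested, 3 rose (30%, beside 17.3% of all tested genes) and 2 fell (20%, beside 18.3%). Their median log2 fold change was -0.05. The apolipoprotein gene Apoa4 (24391, 44750.5 and 48829 CPM in knockouts 423, 476 and 477, against 13343, 21117 and 14458 CPM in controls 482, 483 and 486) rose by a log2 fold change of 1.27 (adjusted p = 0.023). Apob, the chylomicron apolipoprotein, rose by 1.14, and Creb3l3, a membrane-bound transcription factor of lipid metabolism, by 0.87. Their calls were lost without knockout 476 (adjusted p of 0.079 for Apoa4, 0.11 for Apob and 0.075 for Creb3l3) and without knockout 477 (0.075, 0.066 and 0.076). Without control 482 those of Apoa4 (0.069) and Creb3l3 (0.058) were lost, without control 486 those of Apoa4 (0.055) and Apob (0.059), and without control 483 that of Creb3l3 (0.091). Klf4, a differentiation factor, fell by 1.24 on the log2 scale (106, 178 and 162 CPM in the knockouts, 390.5, 320.1 and 341 CPM in the controls). Egfr, the growth factor receptor gene, fell by 0.84 on the log2 scale (adjusted p = 0.048). That call was lost without control 482, control 483, knockout 423 or knockout 477 (adjusted p of 0.12, 0.10, 0.15 and 0.16), and after removal of the length and GC trend (0.196).

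Knockout 423 had the lowest values of Apoa4, Apob, Creb3l3 and Klf4 among the knockouts, as it did for Ada. The same held for the tip landmark genes Cdh1, Fos, Junb and Clca4a. Egfr was slightly lower in knockout 477 than in knockout 423, and the scarce Pkib was highest in knockout 423. Low values in knockout 423 were not limited to tip genes. Among the enterocyte markers, Vil1, Epcam, Cdx2, Fabp2, Alpi, Krt20, Sis, Cdh17 and Krt8 were also lowest there, and Krt18 was highest there. Of 10 genes of the villus base and of cells near the crypt, 1 rose (Lypd8, which encodes an antibacterial protein, log2 fold change 1.45) and the other 9 did not pass. The share that rose was 10% there, beside 17.3% of all tested genes. Of 9 crypt and proliferation genes tested 1 rose (11.1%), the replication clamp gene Pcna, and the median log2 fold change of the 9 was 0.01. Pcna had 104, 107 and 149.7 CPM in knockouts 423, 476 and 477, against 29.3, 29.0 and 40.6 CPM in controls 482, 483 and 486, and so made up most of the knockout sums. With Pcna, the 10 listed genes summed to 194 CPM in knockout 423, 130 in knockout 476 and 165 in knockout 477, and to 97.8, 59.3 and 74.3 CPM in controls 482, 483 and 486. The gap between the genotypes in these sums came from Pcna. As a mean of log2 CPM over the 9 tested genes, knockout 423 was highest at 3.36, and knockouts 476 and 477 were lowest at 1.46 and 1.39. Controls 482, 483 and 486 lay between, at 2.74, 1.78 and 2.05. The part of position along the villus in the result for Ada was not tested. In these bulk libraries, fewer cells of a type and less RNA per cell cannot be told apart.

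Markers of other cells that scraped tissue can hold were measured beside these genes. Erythrocyte genes rose in 5 of 5 (100%, beside 17.3% of all tested genes). Their sums were 128, 35.5 and 543 CPM in knockouts 423, 476 and 477 and 7.95, 14.8 and 22.2 CPM in controls 482, 483 and 486. Of them Alas2 had 283 counts over the 3 knockouts and 30 over the 3 controls. Alas2 passed the low-count filter only through the knockouts, so the filter favoured its call as rising. Ada was highest in knockout 476, where the erythrocyte sum was lowest among the knockouts. Of 7 mast cell markers listed 3 were tested, and these fell. Mcpt1 and Mcpt2 passed the low-count filter only through the controls, so the filter favoured a call as falling. They had 8 and 14 counts over the 3 knockouts and 759 and 291 over the 3 controls. Of those not tested, Cpa3 and Fcer1a were at 0 in the knockouts, while Cma1 had 4 counts there and 0 in the controls. The mast cell list summed to 1.73 to 1.99 CPM in the knockouts and 10.5 to 23.4 CPM in the controls. Control 482 was highest in both that sum and Nt5e. T cell markers summed to 494.5 to 580 CPM in the knockouts and 112 to 621 CPM in the controls (1 of 10 fell). Most of these knockout sums was Gzma, at 378, 418 and 468 CPM in knockouts 423, 476 and 477, which did not pass (adjusted p = 0.17). The marker that fell was Ptprc, at 8.17 ± 1.39 CPM in the knockouts and 28.2 ± 11.3 CPM in the controls (SD, n = 3 each). B and plasma cell markers summed to 11.2 to 226 CPM in the knockouts and 212 to 623 CPM in the controls (0 of 5 passed by edgeR, 0 at an unadjusted p under 0.05 and 0 by DESeq2), and myeloid markers to 38.8 to 44.9 CPM in the knockouts and 24.8 to 75.3 CPM in the controls (2 rose and 2 fell of 10). Endothelial markers, of a cell type known for CD73, summed to at most 4.16 CPM in a knockout and 4.53 CPM in a control, and 0 of 4 passed by edgeR, 2 at an unadjusted p under 0.05 and 1 by DESeq2. Of 8 mesenchyme markers 0 passed by edgeR, 1 at an unadjusted p under 0.05 and 0 by DESeq2. Among tested markers the share that fell was 10% for T cells, 20% for myeloid cells and 100% for mast cells, beside 18.3% of all tested genes. Of the myeloid markers 20% rose, beside 17.3% of all tested genes. The part of these cells in the results was not tested.

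The wider pathway was described by 8 lists of 86 other genes, of which 68 were tested. Of these 68, 12 rose (17.6%, against 17.3% of all tested genes) and 8 fell (11.8%, against 18.3%), so the rising share was near that of the whole table and the falling share below it. Their median log2 fold change was 0.15. Without control 482 or without control 483, 7 rose. Under scaling by library size only, 6 of them rose and 20 fell, and DESeq2 called 13 as lower in the knockouts.

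**Figure D4:**
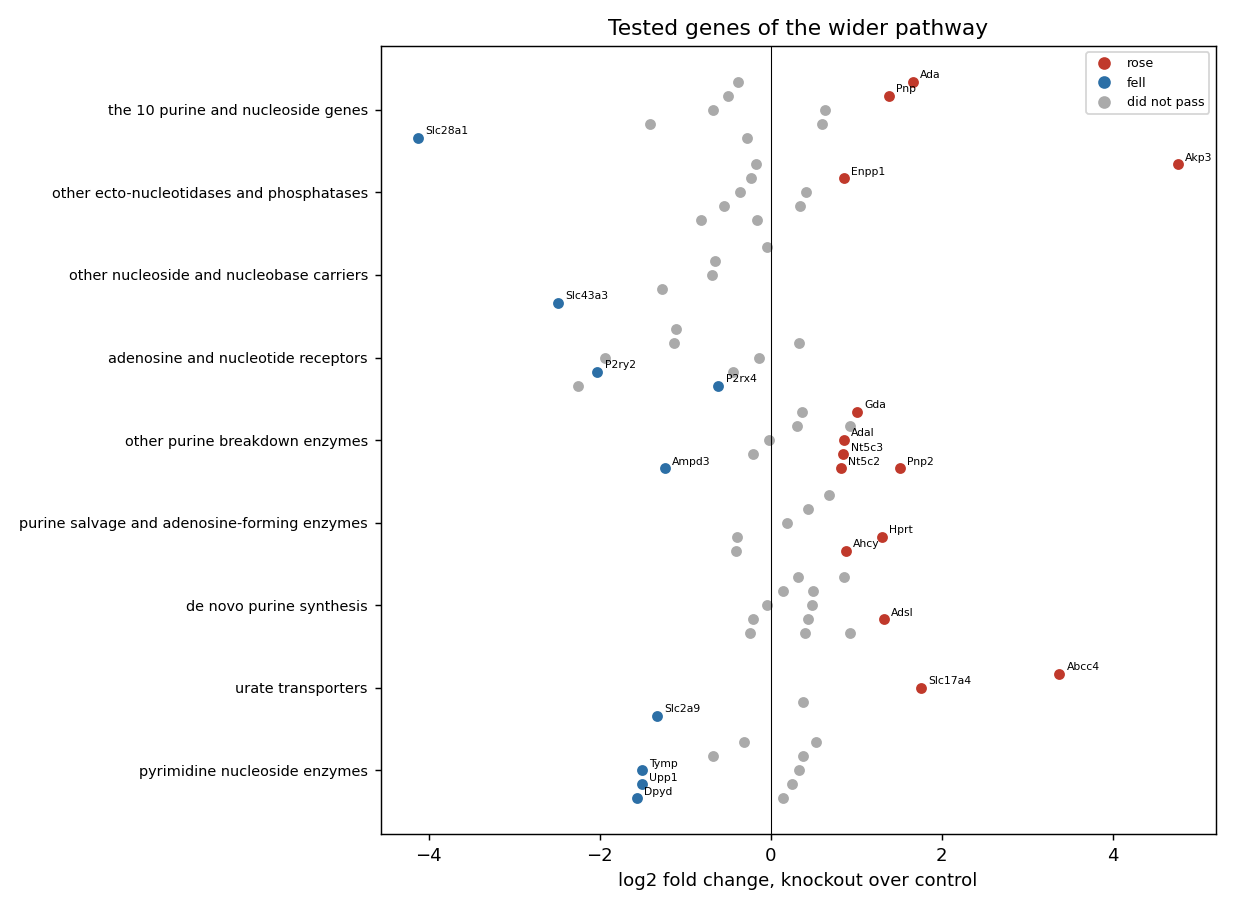
Log2 fold change of knockout over control for each tested gene of the 10 described here and of 8 further lists, with genes that rose in red, those that fell in blue and those that did not pass in grey. Of 11 genes listed as other purine breakdown enzymes, which include the pyrimidine nucleotidase gene Nt5c3, 5 are red and 1 is blue. Of 10 pyrimidine genes 3 are blue.

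Among 11 tested genes listed as other purine breakdown enzymes, the median log2 fold change was 0.82. Of these 11, 1 fell (9.09%, beside 18.3% of all tested genes) and 5 rose (45.5%, beside 17.3%). Besides Pnp2, those that rose included the cytosolic nucleotidase genes Nt5c3 (log2 fold change 0.85) and Nt5c2 (0.82), which act on nucleoside monophosphates. The enzyme of Nt5c3 acts on pyrimidine monophosphates, so the shares of this list are not those of purine breakdown alone. The others were Gda and Adal, named after their values were seen. Gda, the guanine deaminase that yields xanthine, had 1382, 2599.7 and 2178 CPM in the knockouts and 833, 1439 and 785 CPM in the controls, a log2 fold change of 1.01 (adjusted p = 0.040), although knockout 423 lay below control 483. Ampd3, an AMP deaminase gene, fell by 1.24 on the log2 scale. Leaving out 1 library left 2 or 3 of these 11 as rising. The call of Gda was lost without control 482, control 486, knockout 476 or knockout 477 (adjusted p of 0.11, 0.093, 0.14 and 0.10), and that of Adal without any 1 of the 6 (0.063 to 0.12). The call of Nt5c3 was lost without control 482, control 483 or knockout 423 (0.085, 0.095 and 0.081), and that of Nt5c2 without control 483 or knockout 476 (0.10 and 0.078). Ampd3 lost its call without control 482, knockout 423 or knockout 477 (0.079, 0.054 and 0.061).

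Of 7 salvage and adenosine-forming enzymes, 2 rose (28.6%, beside 17.3% of all tested genes) and 5 did not pass, with a median log2 fold change of 0.44. Hprt, which returns hypoxanthine and guanine to nucleotides, had 209.8, 153 and 250.1 CPM in the knockouts and 61.0, 72.0 and 116 CPM in the controls (log2 fold change 1.30, adjusted p = 0.0094). Ahcy, which releases adenosine from S-adenosylhomocysteine, rose by 0.88, a call lost without control 482, control 483 or knockout 423 (adjusted p of 0.078, 0.095 and 0.081). Aprt, the adenine salvage enzyme, was higher in every knockout library at 0.68 (adjusted p = 0.065). It was called by DESeq2 (0.046) and limma-voom (0.0495), and stood at 0.49 without control 482. Of 12 tested genes of purine synthesis from small precursors 1 rose (8.33%, beside 17.3% of all tested genes), and their median log2 fold change was 0.42. The gene that rose was Adsl, the adenylosuccinate lyase, at a log2 fold change of 1.32 (adjusted p = 0.0061). Gmps (0.50), Gart (0.92) and Adss (0.40) did not pass. Without knockout 423 Gart was at 0.03, so its value rested on that library. Adss had the opposite sign, at -0.06, with library-size scaling alone.

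The list named other ecto-nucleotidases and phosphatases, not all of them enzymes of the cell surface, included Akp3, an intestinal alkaline phosphatase gene. Akp3 had 430.1, 129.8 and 623 CPM in the knockouts, against 15.5, 5.71 and 22.4 CPM in the controls, and the groups were far apart (log2 fold change 4.76, SE 0.67, adjusted p = 0.0013). Enpp1, a relative of Enpp3, rose by 0.86 (adjusted p = 0.020), a call lost without control 482, control 483 or knockout 477 (0.061, 0.056 and 0.077). The other 8 of 10 tested did not pass, and the median of the 10 was -0.17. The 20% that rose stand beside 17.3% of all tested genes. Entpd6 (-0.82) and Entpd2 (-0.54) were among those not passing. Entpd6 was called as lower by DESeq2 (adjusted p = 0.041), by limma-voom (0.039) and without knockout 423 (0.012). DESeq2 called 2 genes of this list as lower in the knockouts.

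Among 5 other carriers tested, 1 fell (20%, beside 18.3% of all tested genes), and the median log2 fold change was -0.69. The gene that fell was Slc43a3, which moves purine nucleobases, by 2.49 on the log2 scale (adjusted p = 0.0042). It had 0.541 ± 0.276 CPM in the knockouts and 3.14 ± 0.896 in the controls (SD, n = 3 each). With 44 counts over the 3 knockouts and 406 over the 3 controls, Slc43a3 passed the low-count filter only through the controls. The filter thus favoured a call as falling. Slc28a3, a further concentrative carrier gene, was lower in every knockout library without passing (-1.27, adjusted p = 0.078). It was called by DESeq2 (adjusted p = 0.027) and limma-voom (0.029), and stood at -2.16 without knockout 423 (0.0067). Slc23a4 (-0.65) and Slc29a3 (-0.69) did not pass either. Of 9 receptor genes tested for the same ligands, 2 fell and 7 did not pass. That is 22.2%, near the 18.3% of all genes that fell, and the median log2 fold change was -1.11. That median is the value of P2ry6, with 19 counts over the 3 knockouts and 72 over the 3 controls. P2ry6, P2ry4 and Adora1 passed the low-count filter only through the controls, which pulls the median down. DESeq2 called 4 of the receptor genes as lower in the knockouts. Only 1 receptor gene was called without control 483, without knockout 477 or after removal of the length and GC trend. P2ry2, the receptor for ATP and UTP, had 11.5, 17.8 and 12.3 CPM in the knockouts and 51.2, 52.4 and 66.1 CPM in the controls, a log2 difference of -2.03 (SE 0.23, adjusted p = 0.00035). P2rx4, an ATP-gated channel gene, fell by 0.61 on the log2 scale. Its call was lost without control 483, knockout 423, knockout 476 or knockout 477 (adjusted p of 0.12, 0.11, 0.066 and 0.090), and after removal of the length and GC trend, where the log2 value was -0.31 (0.23). P2ry4 (-2.26) and the adenosine receptor gene Adora1 (-1.94) were each under 1 CPM on average, with 13 and 8 counts over the 3 knockouts, and did not pass. P2ry4 ran from -4.96 without knockout 476, where it was called (adjusted p = 0.0079), to -1.75 without knockout 423, and was also called by DESeq2 (0.035). Adora1 stood at -3.18 without knockout 423 and was called there (adjusted p = 0.037).

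Of 4 urate transporter genes tested, 2 rose and 1 fell, with a median log2 fold change of 1.07. That is 50% and 25%, beside 17.3% and 18.3% of all tested genes. Slc17a4, an apical organic anion and urate transporter gene, had 143, 262 and 243 CPM in the knockouts and 62.0, 78.9 and 50.3 CPM in the controls (log2 fold change 1.76, adjusted p = 0.0020). Abcc4, an exporter of cyclic nucleotides and urate, rose by 3.37 on a low level, 4.71 ± 1.64 CPM in the knockouts and 0.457 ± 0.121 CPM in the controls (SD, n = 3 each). Slc2a9, which carries urate across the basolateral side of enterocytes, fell by 1.33 on the log2 scale, and Abcg2, the apical urate exporter gene, did not pass (0.38; -0.07 with library-size scaling alone).

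Pyrimidine nucleoside enzymes came next: 3 of 10 tested fell and 7 did not pass, with a median log2 fold change of -0.08. The 30% that fell stand beside 18.3% of all tested genes. Dpyd, which starts uracil and thymine breakdown, had 82.1, 97.3 and 104 CPM in the knockouts and 245, 289 and 305 CPM in the controls (log2 fold change -1.56, SE 0.21, adjusted p = 0.00084). The uridine phosphorylase gene Upp1 fell by 1.51 on the log2 scale. The thymidine phosphorylase gene Tymp fell to 4.88 ± 0.947 CPM in the knockouts, against 13.8 ± 2.25 CPM in the controls (SD, n = 3 each). Cda, the cytidine deaminase gene, was at 395 ± 21.9 CPM in the knockouts and 273 ± 41.3 CPM in the controls (SD, n = 3 each; adjusted p = 0.077).

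Genes with the most similar profile were sought by the Euclidean distance between mean-centred log2 CPM over the 6 libraries, as a description. For Ada they were Cntnap1, Mfsd13b and Exd1 (distances of 0.431, 0.505 and 0.525). For Nt5e they were Krt12, Dmxl2 and Zmym6 (0.597, 0.763 and 0.791), and for Slc28a2 Zfp964, Banp and Tmem67 (0.521, 0.554 and 0.592). None of these 9 genes exceeded 16.3 CPM in any library.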

How the data were processed

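The authors deposited a table of raw counts per Ensembl gene for 6 libraries. The submitters' processing notes name build mm10 and, with no order, STAR 2.7.9a, DESeq2 1.23.10, fastp 0.21.0, featureCounts (Subread 1.6.2), bcl2fastq and FastQC 0.11.7. They do not name the annotation or the strand setting. The authors also deposited variance-stabilised values on a log2 scale, used for 1 alternative. Genotype and animal number came from the sample titles. Of 55450 identifiers, 55190 were found in GENCODE M21 (mm10), which gave symbols, coordinates, union exon length and GC content. Reads of a gene and an overlapping one cannot be told apart; Pnp shares exon bases with Gm49342 (319 counts over all libraries).

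Counts were filtered with filterByExpr (15028 genes), scaled by TMM and tested with edgeR 4.0.16 (robust quasi-likelihood) in R 4.3.3, with a threshold of 0.05 on the Benjamini-Hochberg adjusted p. SE is the log2 fold change over the square root of F; log2 CPM used a prior count of 2. The fit was also run on simulated counts with a fixed dispersion and few changed genes. That setting differs from these data, so it does not check the fit under their spread. Counts of libraries of the same genotype differed far beyond sampling noise (lowest chi-square over its degrees of freedom 63.8), so none was a duplicate. Alternatives used limma 3.58.1, DESeq2 1.42.0 and mgcv 1.9.3. Floors cover counting error only. All 10 genes are named; of each other list up to 4 with the smallest adjusted p, and others as stated. Members and lists were chosen with earlier results of these data known. Sequences are from RefSeq. The second targeted gene is not reported here.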

Additional observations from a re-analysis of the deposited data

How the results depend on the processing

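No paired analysis was possible because the animal numbers of the genotypes are not shared. The calls of Ada, Pnp and Slc28a1 were made under all 16 alternatives, and no call among the 10 genes was lost. Without 1 library, the count of all genes that rose ran from 1510 to 2958 and that of genes that fell from 1748 to 2982, furthest from the full fit without control 482 (1510 rose, 1789 fell), control 483 (1555 rose) and knockout 477 (1648 rose, 1748 fell), and 7 to 13 genes of the 8 other lists rose. Library-size scaling alone gave 1133 rising and 4554 falling genes, 3 falling members, and 6 rising and 20 falling genes of the other lists, with Nt5e at -1.95 and Adk at -1.08 now called; it turned Adss to -0.056 and Abcg2 to -0.065. It moved the median of all genes by -0.44. Without a low-count filter 3 members fell, with Nt5e at -1.45 and Adk at -0.72 called, and 16 other genes fell. DESeq2 called 2 members as falling, with Nt5e at -1.40, and 13 other genes. Entpd5 was called with upper-quartile scaling (0.68) and without the length and GC trend (0.85), where Xdh (0.17), Ahcyl2 (0.25) and Il18 (-0.081) changed sign. Slc29a1 ran from -0.10 to 0.90 and Xdh from -0.55 to 0.079 without 1 library. The cause was not tested for these. Per kilobase of the longest transcript, a shorter length by construction, knockout levels were 16.2 for Nt5e, 1.95 for Slc29a1, 69.9 for Pnp, 170.5 for Enpp3 and 8.42 for Adk, and control levels 43.2 for Nt5e, 1.29 for Slc29a1, 26.9 for Pnp, 223 for Enpp3, 58.3 for Entpd5 and 13.5 for Adk. Slc29a1 had the lowest CPM of the 10 genes, and so the fewest reads behind its value.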
